A study of Mus musculus with 7 samples.

Results

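The genes described here are 30 enzymes and regulators of cholesterol and fatty acid synthesis, chosen by name and followed in 7 RNA-seq libraries made from mouse HSPCs (haematopoietic stem and progenitor cells) in culture. All 30 had a row in the count table of 34305 genes, and all 30 were among the 14808 genes left by the filter on low counts. They were kept in 3 sets: 17 enzymes of the sterol branch, 10 enzymes of the fatty acid branch and 3 regulators (Srebf2, Srebf1 and Insig1).

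The study measured poly(A) RNA after forced expression of MN1, a nuclear co-regulator of transcription and an oncogene of myeloid leukaemia. Per the labels, 3 libraries came from HSPCs overexpressing MN1pQdel, which the series text also writes as MN1-∆pQ, 3 from HSPCs overexpressing MN1 and 1 from untransduced HSPCs (noTD, overexpression "none"). All were grown in IMDM with 15% heat-inactivated serum, IL-3, IL-6 (10 ng/mL) and stem cell factor (20 ng/mL), and transduced cells were sorted and cultured for 7 to 9 days before RNA was taken. The deleted stretch, pQ, is the polyglutamine run of the MN1 protein. Nothing in the sources used here gives the strain or age of the animals or the promoter and species of the constructs. The samples of a group are called independent, but nothing ties them to separate animals, and p-values therefore reflect only how these libraries spread. Cells carrying an empty construct were not analysed here.

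Cholesterol is built from acetyl-CoA through mevalonate, isoprenoid units, squalene and lanosterol, and each step has its own enzyme. Saturated fatty acids are built from the same acetyl-CoA by acetyl-CoA carboxylase and fatty acid synthase, and are then lengthened by elongases and given double bonds by desaturases. The transcription factors SREBP2 and SREBP1, encoded by Srebf2 and Srebf1, switch on the sterol and fatty acid genes, and INSIG1 holds them in the endoplasmic reticulum when sterols are plentiful. Growing blood progenitors use these pathways to make membrane.

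Library totals ran from 38210660 to 67728658 counts, and the lowest count of any member in any library was 567. Mn1 stood at 692, 401 and 731 CPM (counts scaled to library size, with TMM factors) in MN1pQdel replicates 1 to 3, at 313, 286 and 283 CPM in MN1 replicates 1 to 3 and at 34.5 CPM in noTD. Its log2 fold change of MN1pQdel over MN1 was 1.05 (edgeR Benjamini-Hochberg adjusted p = 0.0282), a call lost in every fit without 1 library other than MN1pQdel replicate 2. The species of the constructs and the transcripts used for counting are not given, so Mn1 counts may depend on how well each construct matched them. Markers of the labelled cells and of mature blood cells were both present. A list of 12 stem and progenitor markers summed to between 1500 and 2608 CPM in MN1pQdel, to between 2455 and 3102 CPM in MN1 and to 2337 CPM in noTD. Of these 12, 6 were lower in MN1pQdel than in MN1 by edgeR and 0 higher, where 6.08% and 11.1% of all tested genes were. None was higher by DESeq2 or at an unadjusted p under 0.05, but with the replicate number as a block 8 were lower and 1 higher. For 9 of them all MN1pQdel libraries lay below all MN1 libraries, as for 21.3% of all tested genes. The median log2 fold change was -1.20, and 3 of the 12 log2 fold changes were above 0. A list of 14 neutrophil markers summed to between 32450 and 43469 CPM in MN1pQdel, to between 5148 and 9317 CPM in MN1 and to 45158 CPM in noTD. The 8 eosinophil markers with a row in the table, of 9 listed, summed to between 232 and 3579 CPM in MN1pQdel, to between 13.1 and 21.1 CPM in MN1 and to 3828 CPM in noTD. The 11 mast cell markers summed to between 2799 and 17403 CPM in MN1pQdel, to between 1472 and 3595 CPM in MN1 and to 15473 CPM in noTD. Neutrophil sums exceeded the stem and progenitor sums in all 7 libraries. A list of 12 macrophage markers summed to between 1016 and 1179 CPM in MN1pQdel, to between 522 and 567 CPM in MN1 and to 1368 CPM in noTD, and the 9 erythroid markers with a row, of 10 listed, to between 329 and 363 CPM in MN1pQdel, to between 360 and 407 CPM in MN1 and to 193 CPM in noTD. No marker with a row was at 0 in any library. MN1pQdel replicate 2 held the low eosinophil and mast cell sums of its group. In such bulk RNA, fewer cells of a type and less RNA per cell cannot be told apart, and the part of this mixture in the results below was not tested.

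Of the 30 genes, 6 were lower in MN1pQdel than in MN1 and 0 were higher (quasi-likelihood test of edgeR, p adjusted by Benjamini-Hochberg over all genes, threshold 0.05), where 6.08% of all tested genes were called lower and 11.1% higher (12.5% and 7.70% when scaled by library totals alone). At an unadjusted p under 0.05, 11 members were lower and 1, Acss2, higher, where 16.8% of all tested genes were lower and 21.0% higher. DESeq2 called 10 members lower and Acss2 higher, where it called 12.9% of all tested genes lower and 16.5% higher. The 6 were the desaturase genes Scd1, Fads1 and Fads2, the regulator gene Insig1 and the sterol enzyme genes Dhcr7 and Pmvk. The log2 fold change of MN1pQdel over MN1 was below 0 for 26 members, where 49.3% of all tested genes lay below 0. The MN1pQdel libraries all lay below the MN1 libraries for 11 members and all above for 1, Ebp, against 21.3% and 22.1% of all tested genes.

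**Figure D1:**
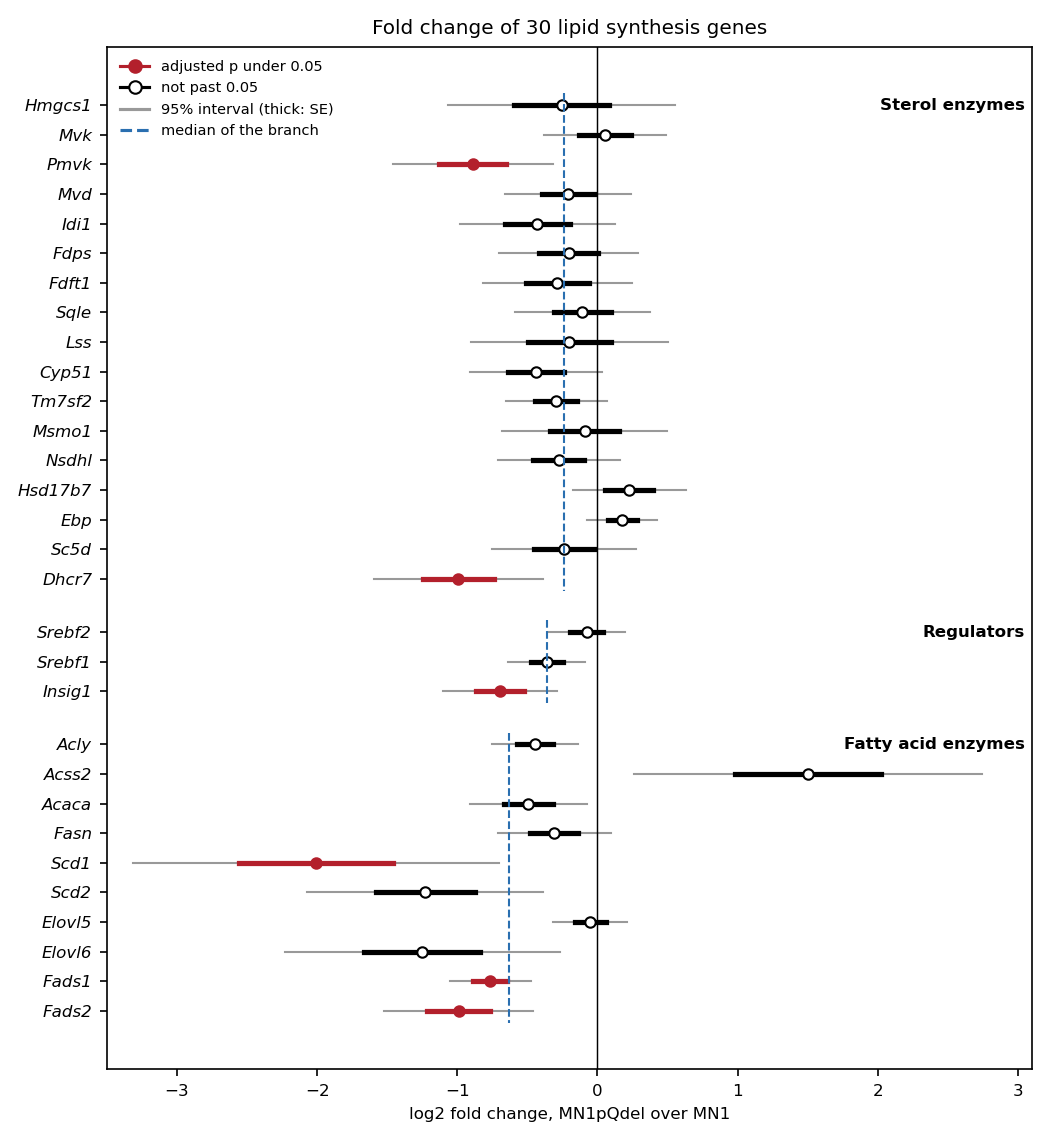
The plot of fold changes gives the log2 fold change of MN1pQdel over MN1 for the 30 genes, with its standard error (thick bar) and 95% interval (thin bar), red where the edgeR Benjamini-Hochberg adjusted p was under 0.05, and a dashed line at each set's median. The sterol median lay at -0.24 and the fatty acid median at -0.63, and 6 genes were called, all to the left of 0.

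In the fatty acid branch, 3 of 10 enzymes were lower in MN1pQdel and 0 higher, where 6.08% of all tested genes were called lower and 11.1% higher. The median log2 fold change of the branch was -0.63, where the median of all tested genes was 0.01. The branch begins with ATP-citrate lyase (Acly) and acetyl-CoA synthetase (Acss2), which supply acetyl-CoA, followed by acetyl-CoA carboxylase (Acaca) and fatty acid synthase (Fasn). Acly stood at 373, 476 and 413 CPM in MN1pQdel replicates 1 to 3, and at 579, 528 and 609 CPM in MN1 replicates 1 to 3. The groups did not overlap, yet the log2 fold change of -0.44 (SE 0.13) missed the threshold (edgeR Benjamini-Hochberg adjusted p = 0.0577). Acaca was similar, with 106, 165 and 125 CPM in MN1pQdel, against 172, 180 and 205 CPM in MN1 (log2 fold change -0.49, SE 0.18, edgeR Benjamini-Hochberg adjusted p = 0.0939). Fasn stood at 460, 594 and 705 CPM in MN1pQdel, and at 690, 714 and 775 CPM in MN1. Its groups overlapped by MN1pQdel replicate 3, and its log2 fold change of -0.31 had a 95% interval from -0.71 to 0.09.

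Scd1 and Scd2 encode stearoyl-CoA desaturases, which place the first double bond in a saturated fatty acid. Scd1 had 15.1, 43.9 and 45.0 CPM in MN1pQdel replicates 1 to 3, against 120, 71.1 and 228 CPM in MN1 replicates 1 to 3. Every MN1pQdel library lay below every MN1 library, with means of 34.7 ± 16.98 CPM in MN1pQdel and 140 ± 80.3 CPM in MN1 (SD, n = 3 each). The log2 fold change was -2.01 (SE 0.55, edgeR Benjamini-Hochberg adjusted p = 0.0494), just inside the threshold. Scd2, the more abundant paralogue, had 271, 735 and 561 CPM in MN1pQdel, against 1111, 1061 and 1499 CPM in MN1. These groups did not overlap either, but its log2 fold change of -1.23 (SE 0.35) fell just outside the threshold (edgeR Benjamini-Hochberg adjusted p = 0.0566), and passed it with the replicate number as a block (0.0373). Reads from stretches shared by the 2 paralogues can be split between them by the counting, so their separate levels are uncertain.

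Fads1 and Fads2 encode the front-end desaturases that make polyunsaturated fatty acids from dietary precursors. Fads1 had 108, 134 and 115 CPM in MN1pQdel replicates 1 to 3, against 218, 188 and 201 CPM in MN1 replicates 1 to 3. It averaged 119 ± 13.7 CPM in MN1pQdel and 202 ± 14.7 CPM in MN1 (SD, n = 3 each), a gap far wider than either SD. Its log2 fold change of -0.77 (standard error 0.12, edgeR Benjamini-Hochberg adjusted p = 0.0121) had the lowest p of the 30 members. Fads2 had 65.5, 114 and 85.4 CPM in MN1pQdel, against 181, 144 and 200 CPM in MN1, a log2 fold change of -0.99 (standard error 0.22, edgeR Benjamini-Hochberg adjusted p = 0.0304). MN1pQdel replicate 2 was the highest of its group and MN1 replicate 2 the lowest of its own for both genes. All 4 desaturase genes lie on chromosome 19 (GRCm38, GENCODE M21). Fads1 (10182888 to 10196877, plus strand) and Fads2 (10062765 to 10101746, minus strand) are 81141 bases apart, and Scd1 (44394455 to 44407879, minus strand) and Scd2 (44293674 to 44306864, plus strand) are 87590 bases apart.

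The 2 elongase genes differed in their values. Elovl6, which lengthens saturated and monounsaturated chains, had 22.9, 62.5 and 22.0 CPM in MN1pQdel, against 74.1, 88.9 and 92.5 CPM in MN1. The groups did not overlap, and MN1pQdel replicate 2 stood apart from the other MN1pQdel libraries. Its log2 fold change was -1.25 (SE 0.41, edgeR Benjamini-Hochberg adjusted p = 0.0779, and 0.0373 with the block). Elovl5, which lengthens polyunsaturated chains, had a log2 fold change of -0.05 with a 95% interval from -0.31 to 0.21.

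Acss2, which makes acetyl-CoA from acetate, was the only fatty acid enzyme gene with a positive log2 fold change, 1.50 (SE 0.52, edgeR Benjamini-Hochberg adjusted p = 0.0878, and 0.0190 with the block). It stood at 81.1, 22.6 and 81.6 CPM in MN1pQdel replicates 1 to 3, against 29.8, 13.1 and 22.7 CPM in MN1 replicates 1 to 3 and 73.6 CPM in noTD. MN1pQdel replicate 2 thus lay inside the MN1 range, and the other MN1pQdel libraries lay close to noTD. The same library was low in its group on the eosinophil (232 against 3338 and 3579 CPM) and mast cell marker sums (2799 against 14664 and 17403 CPM). The part of those cells in the Acss2 difference was not tested. Exons of Acss2 overlap those of Ggt7 and Gss on the other strand, and with no strand stated their reads cannot be told apart.

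**Figure D2:**
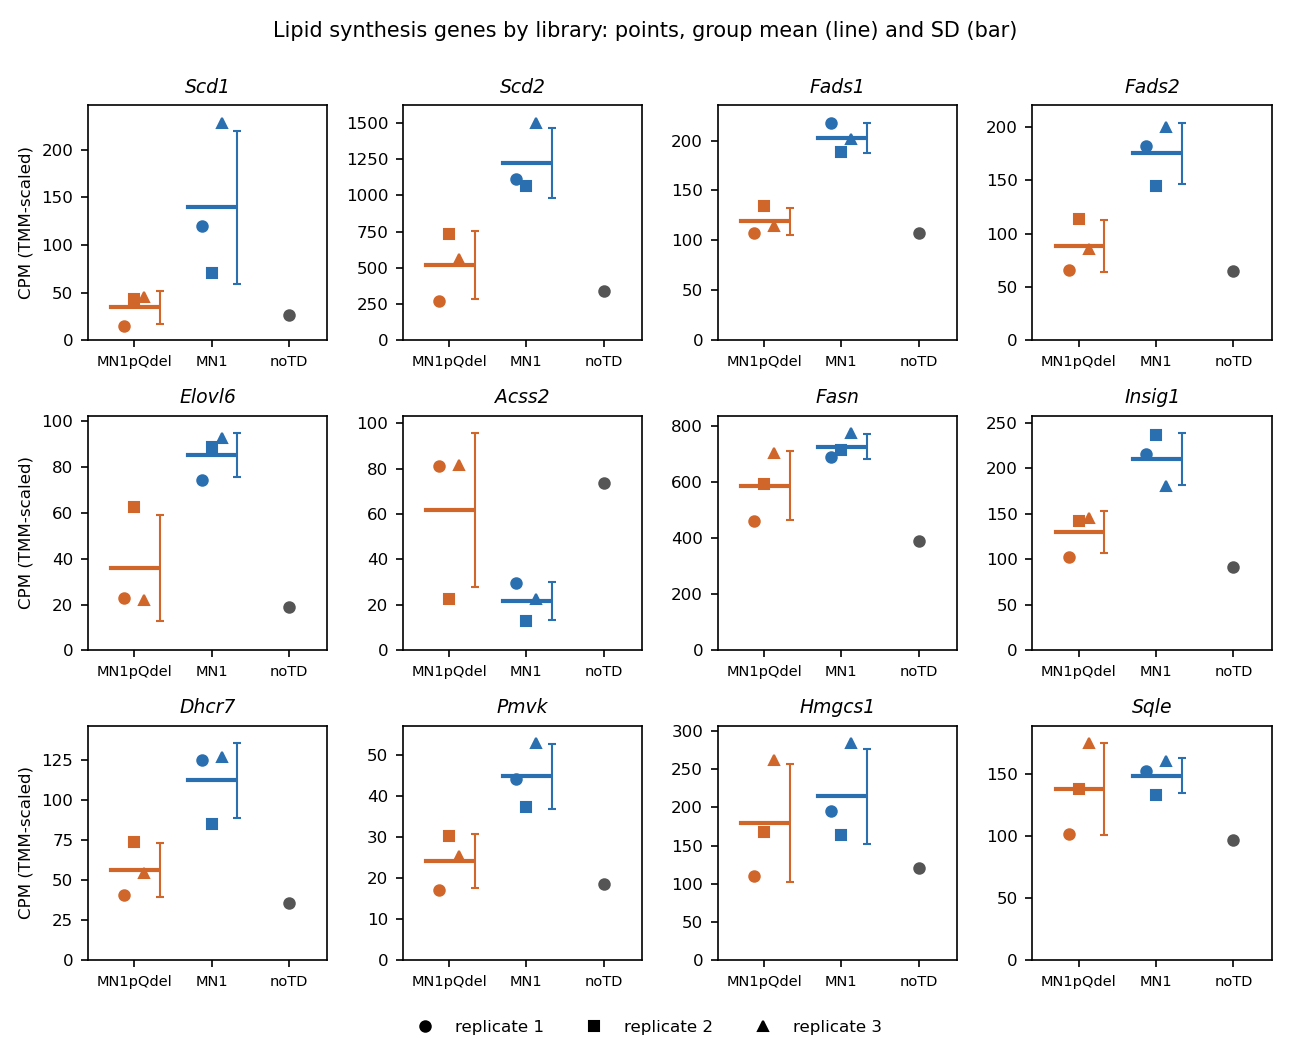
The plot of levels by library shows TMM-scaled CPM of 12 genes in the MN1pQdel, MN1 and noTD libraries, with the group mean as a line, the SD (n = 3) as a bar and the replicate number as the symbol. Scd1, Scd2, Fads1, Fads2, Elovl6, Insig1, Dhcr7 and Pmvk have all MN1pQdel points below all MN1 points, while Hmgcs1, Sqle, Fasn and Acss2 overlap.

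In the sterol branch, 2 of 17 enzymes were lower in MN1pQdel and 0 higher, where 6.08% of all tested genes were called lower and 11.1% higher. The median log2 fold change of the branch was -0.24. Dhcr7, the reductase of the last step to cholesterol, had 40.7, 74.3 and 54.8 CPM in MN1pQdel replicates 1 to 3, against 125, 85.5 and 127 CPM in MN1 replicates 1 to 3. It averaged 56.6 ± 16.9 CPM in MN1pQdel and 112 ± 23.4 CPM in MN1 (SD, n = 3 each), with no overlap. The log2 fold change was -0.99 (SE 0.25, edgeR Benjamini-Hochberg adjusted p = 0.0424), and the call was lost with the replicate number as a block (0.0601). Pmvk, the phosphomevalonate kinase gene, had 17.1, 30.2 and 25.3 CPM in MN1pQdel, against 44.1, 37.4 and 53.0 CPM in MN1. Its groups did not overlap, and its log2 fold change was -0.89 (SE 0.24, edgeR Benjamini-Hochberg adjusted p = 0.0479).

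The other 15 sterol enzymes did not pass, and 14 of the 17 had overlapping groups. In 2 of the 17 all MN1pQdel libraries lay below all MN1 libraries and in 1 all lay above, where 21.3% and 22.1% of all tested genes did. Hmgcs1, the HMG-CoA synthase gene at the entry of the mevalonate pathway, had 110, 168 and 261 CPM in MN1pQdel replicates 1 to 3, against 195, 164 and 284 CPM in MN1 replicates 1 to 3. The MN1pQdel libraries spread widely, the groups overlapped, and the log2 fold change of -0.25 (95% interval -1.06 to 0.55) leaves room for a 2-fold difference. Sqle, the squalene epoxidase gene, had 101, 138 and 175 CPM in MN1pQdel, against 152, 134 and 161 CPM in MN1. Its 95% interval, from -0.59 to 0.37 around a log2 fold change of -0.11, does not include a 2-fold difference. Among the remaining mevalonate and isoprenoid enzymes the log2 fold change was 0.05 for the mevalonate kinase gene Mvk, -0.21 for the decarboxylase gene Mvd, -0.43 for the isomerase gene Idi1 and -0.21 for the farnesyl diphosphate synthase gene Fdps. Among those that make and close squalene it was -0.29 for the squalene synthase gene Fdft1 and -0.20 for the lanosterol synthase gene Lss. From lanosterol onward it was -0.44 for the demethylase gene Cyp51 (edgeR Benjamini-Hochberg adjusted p = 0.153), -0.29 for the reductase gene Tm7sf2, -0.09 for the methyl oxidase gene Msmo1, -0.27 for the dehydrogenase gene Nsdhl, 0.23 for the ketoreductase gene Hsd17b7, 0.18 for the isomerase gene Ebp and -0.24 for the desaturase gene Sc5d. Ebp, at 49.1, 47.3 and 53.9 CPM in MN1pQdel and 43.3, 44.0 and 45.6 CPM in MN1, was the only sterol enzyme gene with all MN1pQdel libraries above MN1, though its log2 fold change was -0.027 when scaled by library totals alone.

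Of the 3 regulators, 1 was lower in MN1pQdel and 0 higher, where 6.08% of all tested genes were called lower and 11.1% higher. Insig1 had 103, 142 and 145 CPM in MN1pQdel replicates 1 to 3, against 215, 236 and 180 CPM in MN1 replicates 1 to 3. The groups did not overlap, at means of 130 ± 23.5 CPM in MN1pQdel and 211 ± 28.4 CPM in MN1 (SD, n = 3 each) and a log2 fold change of -0.69 (standard error 0.17, edgeR Benjamini-Hochberg adjusted p = 0.0389). Srebf1 had 136, 158 and 156 CPM in MN1pQdel, against 190, 176 and 210 CPM in MN1. Its groups did not overlap, and its log2 fold change of -0.36 (SE 0.12) passed with the block (edgeR Benjamini-Hochberg adjusted p = 0.0495) and not without it (0.0720). Srebf2 had 355, 383 and 395 CPM in MN1pQdel, against 433, 358 and 405 CPM in MN1. These groups overlapped, and the log2 fold change of -0.08 had a 95% interval from -0.35 to 0.20. The exons of Srebf1 overlap those of Rai1 on the other strand.

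The edgeR Benjamini-Hochberg adjusted p of the 6 calls ran from 0.0121 for Fads1 to 0.0494 for Scd1. None of the 6 calls held in every fit without 1 library. Pmvk, Dhcr7, Insig1, Scd1 and Fads2 each kept their call when MN1pQdel replicate 2 was left out and lost it when any other library was, at edgeR Benjamini-Hochberg adjusted p up to 0.140 for Pmvk, 0.127 for Dhcr7, 0.129 for Insig1, 0.134 for Scd1 and 0.105 for Fads2. Fads1 lost its call without MN1pQdel replicate 1 (0.0584), MN1 replicate 1 (0.0583) or MN1 replicate 3 (0.0576) and kept it in the other 3 fits. Calls over all tested genes fell as well, from 2545 to between 506 and 941 without 1 library other than MN1pQdel replicate 2. The losses are thus not particular to these members. The log2 fold changes of the 6 genes stayed below 0 throughout, from -2.33 to -1.46 for Scd1, from -1.24 to -0.82 for Fads2, from -0.88 to -0.71 for Fads1, from -1.26 to -0.81 for Dhcr7, from -1.10 to -0.70 for Pmvk and from -0.80 to -0.56 for Insig1. Without MN1pQdel replicate 2, 7 fatty acid enzymes were lower and 1 higher, 3 sterol enzymes were lower, and Insig1 and Srebf1 were lower, where 20.6% of all tested genes were called lower and 21.3% higher. Acly (-0.56), Acaca (-0.71), Scd2 (-1.58), Elovl6 (-1.94), Tm7sf2 (-0.44) and Srebf1 (-0.42) gained a call there as lower and Acss2 (1.88) as higher, on the log2 scale. With the block, 5 fatty acid enzymes were lower and 1 higher, 1 sterol enzyme was lower and 2 regulators were lower, against 13.7% of all tested genes called lower and 30.7% called in either direction.

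Within libraries of the same number, the median log2 difference of MN1pQdel minus MN1 over the 17 sterol enzymes was -0.68 for number 1, 0.05 for number 2 and -0.21 for number 3, and 16, 6 and 11 enzymes were lower in MN1pQdel. Over the 10 fatty acid enzymes it was -0.86, -0.30 and -0.76 for numbers 1 to 3, with 9, 8 and 9 lower. The same median over all tested genes lay between -0.00125 and 0.00679. For 8 of 10 fatty acid enzymes, 2 of 3 regulators and 4 of 17 sterol enzymes (Pmvk, Idi1, Cyp51 and Dhcr7) MN1pQdel was the lower library in all 3 pairs, as it was for 33.6% of all tested genes. In the sterol branch, MN1pQdel replicate 1 was the lowest library of its group for 14 of 17 enzymes and MN1pQdel replicate 3 the highest for 11, while MN1 replicate 2 was the lowest of its group for 14 and MN1 replicate 3 the highest for 14. In the fatty acid branch MN1pQdel replicate 2 was the highest of its group for 7 of 10 enzymes, and MN1pQdel replicate 1 the lowest for 8. The order of libraries within a group was not counted over all tested genes.

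**Figure D3:**
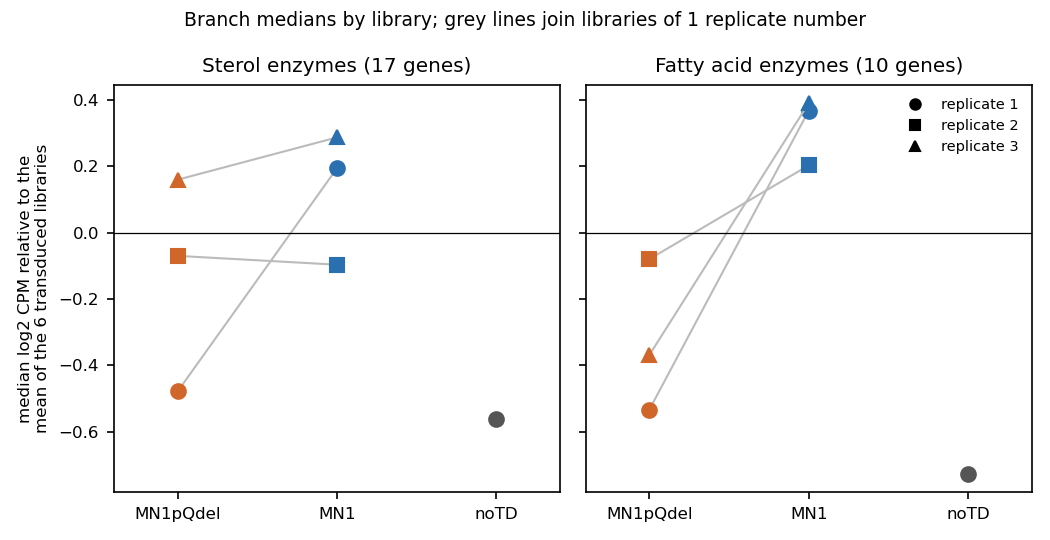
The plot of branch medians gives, for each library, the median over the branch's genes of log2 CPM set against the mean of the 6 transduced libraries, with grey lines between libraries of the same replicate number. MN1pQdel lies at -0.48, -0.07 and 0.16 in the sterol panel (replicates 1 to 3), within reach of MN1 at 0.19, -0.10 and 0.29, while in the fatty acid panel MN1pQdel (-0.53, -0.08 and -0.37) lies below MN1 (0.37, 0.20 and 0.39), and noTD lies lowest at -0.56 and -0.73.

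Against untransduced cells, the MN1pQdel mean was above noTD for 26 of 30 members and the MN1 mean for 28 of 30. With 1 noTD library there is no replicate check and no test, and both comparisons share it. The median log2 difference from noTD over the sterol enzymes was 0.42 for MN1pQdel and 0.61 for MN1. Over the fatty acid enzymes it was 0.40 for MN1pQdel and 0.95 for MN1. Over all tested genes it was -1.8e-15 for MN1pQdel and -0.0037 for MN1. The share of all tested genes with a mean above noTD was not counted. None of the 30 members differed at least 2-fold between the MN1pQdel mean and noTD, where 1.42% of all tested genes were at least 2-fold higher and 3.38% at least 2-fold lower. Between the MN1 mean and noTD, 8 members were at least 2-fold higher and 1 was at least 2-fold lower, where 10.1% and 15.7% of all tested genes were. The log2 difference of MN1 minus noTD was 2.25 for Scd1, 2.16 for Elovl6, 1.84 for Scd2, 1.62 for Dhcr7, 1.42 for Fads2, 1.25 for Pmvk, 1.20 for Insig1 and 1.03 for Idi1, and -1.83 for Acss2. Just under the 2-fold line lay Cyp51 at 0.99 and Acaca at 0.98.

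The noTD library was the lowest of all 7 for 9 of 17 sterol enzymes, 7 of 10 fatty acid enzymes and 2 of 3 regulators, where it was the lowest for 14.8% of all tested genes. It was the highest of all 7 for 1 member, Ebp (53.9 CPM), and for 15.3% of all tested genes. Scd1 stood at 26.1 CPM in noTD and Scd2 at 338 CPM, both above MN1pQdel replicate 1 (15.1 and 271 CPM) and below the other transduced libraries. Fads1 stood at 108 CPM in noTD, level with MN1pQdel replicate 1. MN1pQdel replicate 1 was among the lowest 2 of the 7 libraries for 14 sterol and 8 fatty acid enzymes, as noTD was for 14 and 9. How often either was among the lowest 2 over all tested genes was not counted.

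**Figure D4:**
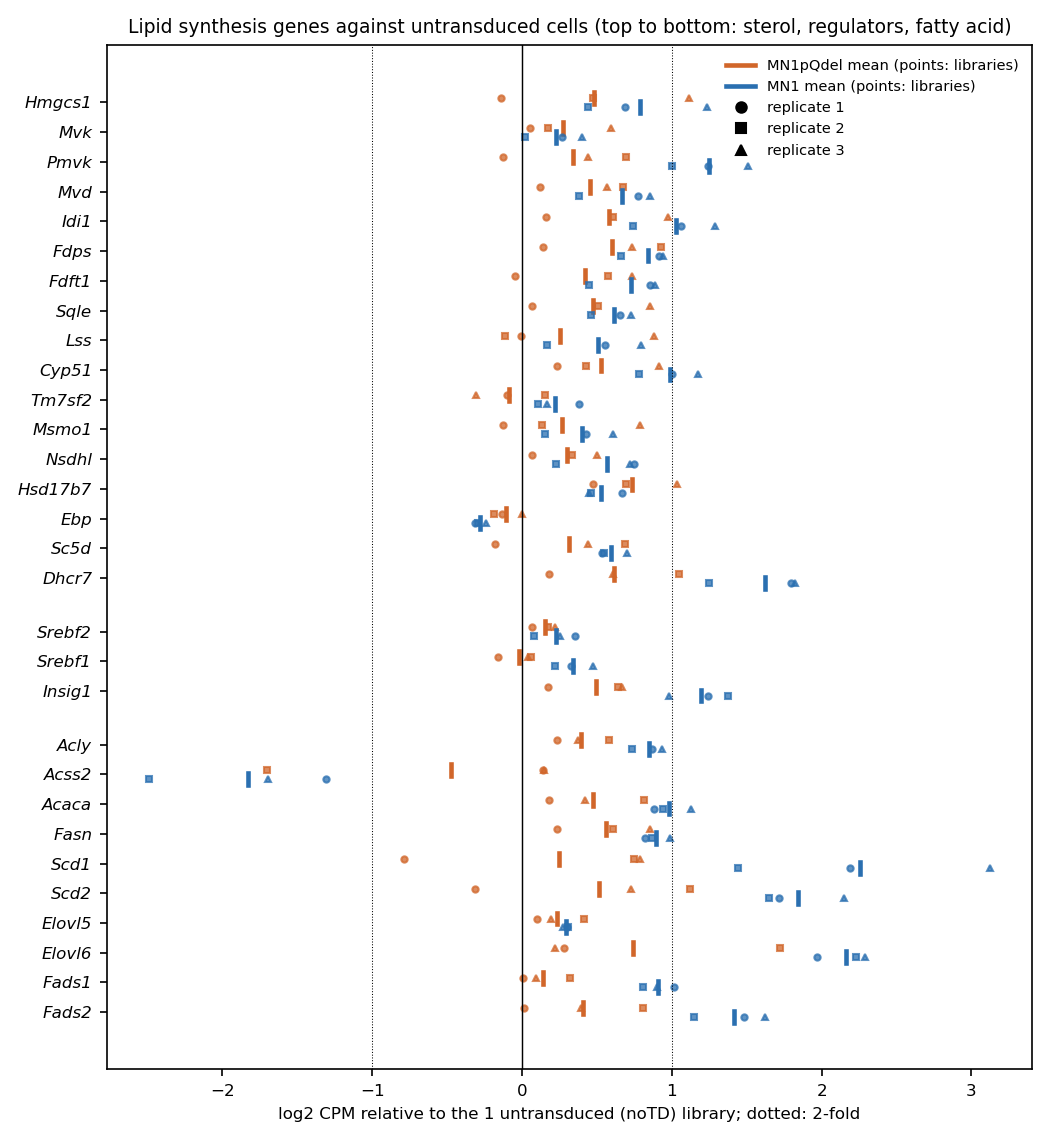
The plot against untransduced cells shows log2 CPM of each MN1pQdel and MN1 library (points, shaped by replicate number) and each group mean (bars) relative to the 1 noTD library, with dotted lines at 2-fold. The MN1 means of Scd1, Elovl6, Scd2, Dhcr7, Fads2, Pmvk, Insig1 and Idi1 lie to the right of the upper 2-fold line and that of Acss2 (-1.83) to the left of the lower one, while no MN1pQdel mean lies beyond either.

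Per length of annotated exons (all exons of a gene merged), the members spanned a wide range of levels. In the fatty acid branch Scd2 was the highest at 95.6 CPM per kb in MN1pQdel, 224 in MN1 and 61.8 in noTD, followed in MN1 by Acly at 79.7 CPM per kb in MN1pQdel and 108 in MN1 and by Fasn at 53.6 in MN1pQdel and 66.3 in MN1. Scd1 stood at 7.09 CPM per kb in MN1pQdel and 28.5 in MN1, and Acss2 was the lowest of the branch in MN1 at 6.08 CPM per kb in MN1pQdel and 2.15 in MN1. In the sterol branch Fdps was the highest, at 70.8 CPM per kb in MN1pQdel and 81.7 in MN1, and Hsd17b7 the lowest, at 8.43 in MN1pQdel and 7.20 in MN1. Exons of Tm7sf2 overlap those of Vps51, and exons of Fdps those of Gm43738, on the same strand, and exons of Fdft1 and Cyp51 overlap those of Ctsb and Akap9 on the other strand, so these levels may hold reads of both genes.

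Promoter sequence was available from RefSeq (GRCm38.p6) for 24 of the 30 members, as 300 bases from 250 before to 50 after the start, and for 27025 genes in all. It was searched on both strands for the sterol element TCACNCCAC, to which SREBP binds, the E-box CACGTG, the NF-Y box CCAAT and the Sp1 box GGGCGG, and a gene with several starts was counted once. CCAAT was found in 14 of 14 sterol enzymes, 3 of 3 regulators and 4 of 7 fatty acid enzymes, and in 41.1% of all genes. GGGCGG was found in 13 of 14 sterol enzymes, 3 of 3 regulators and 3 of 7 fatty acid enzymes, and in 38.2% of all genes. CACGTG was found in 3 of 14 sterol enzymes, 1 of 3 regulators and 1 of 7 fatty acid enzymes, and in 8.09% of all genes. TCACNCCAC was found in 1 member, Hmgcs1, and in 1.44% of all genes. These are matches of letters and not shown sites. The 6 members without promoter sequence were Sqle, Fdft1, Fdps, Scd1, Scd2 and Fads1, so the called genes Scd1 and Fads1 are outside these counts. The 27025 genes include genes outside the 14808 left by the filter on low counts, which all 30 members passed. The share among the 14808 was not counted.

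The stretches before the start, outside annotated exons of the gene, are shown for Hmgcs1, the member with the sterol element, and for the called members Pmvk, Dhcr7 and Insig1. The called gene Fads2 also had promoter sequence (chr19:10101454-10101753, minus strand), with 1 GGGCGG match. It is not shown, as the annotated gene reaches 10101746, almost to the far end of that sequence. Capitals mark matches of these 4 motifs on either strand. All 4 lie on the plus strand, at chr13:119690101-119690350 for Hmgcs1, chr3:89454291-89454540 for Pmvk, chr7:143822917-143823144 for Dhcr7 and chr5:28071162-28071362 for Insig1.
Hmgcs1: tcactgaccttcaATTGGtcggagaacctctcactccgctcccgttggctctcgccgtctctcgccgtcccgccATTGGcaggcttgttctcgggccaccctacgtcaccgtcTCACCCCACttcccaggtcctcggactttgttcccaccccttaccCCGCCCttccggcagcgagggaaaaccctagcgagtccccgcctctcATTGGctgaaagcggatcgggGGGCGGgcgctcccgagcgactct
Pmvk: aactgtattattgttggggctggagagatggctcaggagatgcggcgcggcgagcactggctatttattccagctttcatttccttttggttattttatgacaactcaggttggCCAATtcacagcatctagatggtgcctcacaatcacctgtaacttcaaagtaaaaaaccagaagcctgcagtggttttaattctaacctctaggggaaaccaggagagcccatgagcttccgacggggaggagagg
Dhcr7: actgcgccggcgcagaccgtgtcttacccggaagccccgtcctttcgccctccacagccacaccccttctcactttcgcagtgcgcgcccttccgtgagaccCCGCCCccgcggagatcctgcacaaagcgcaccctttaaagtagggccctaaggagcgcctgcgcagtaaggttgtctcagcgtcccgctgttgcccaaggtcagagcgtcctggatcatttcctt
Insig1: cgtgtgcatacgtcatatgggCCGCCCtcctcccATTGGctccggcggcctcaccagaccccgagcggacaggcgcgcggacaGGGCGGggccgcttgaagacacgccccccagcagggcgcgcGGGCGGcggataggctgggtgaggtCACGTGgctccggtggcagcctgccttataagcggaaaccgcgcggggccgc
Within the stretches shown, Hmgcs1, whose levels overlapped between MN1pQdel and MN1, held the sterol element beside 3 CCAAT and 2 GGGCGG matches. Of the genes lower in MN1pQdel, Pmvk held 1 CCAAT match, Dhcr7 1 GGGCGG match, and Insig1 1 CACGTG, 1 CCAAT and 3 GGGCGG matches. The counts over all members above also take in the bases after the start and other annotated starts, and Dhcr7 held CACGTG and CCAAT matches at other starts.

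Other genes of the same pathways gave further values. Of 16 other sterol genes (earlier and later enzymes, SREBP processing, uptake and esterification), 1 was lower and 1 higher in MN1pQdel, at a median log2 fold change of -0.15. Over all tested genes, 6.08% were called lower and 11.1% higher. Acat2, the acetoacetyl-CoA thiolase gene of the first step, had 38.5, 64.3 and 63.7 CPM in MN1pQdel, against 116, 100 and 158 CPM in MN1 (log2 fold change -1.17, SE 0.25, edgeR Benjamini-Hochberg adjusted p = 0.0273). Soat1, which esterifies cholesterol for storage, had 129, 138 and 146 CPM in MN1pQdel, against 74.8, 77.4 and 99.7 CPM in MN1 (log2 fold change 0.71, SE 0.14, edgeR Benjamini-Hochberg adjusted p = 0.0210). The call of Acat2 was lost in 5 of 6 fits without 1 library, all but that without MN1pQdel replicate 2, and the call of Soat1 in all but those without MN1pQdel replicate 2 or MN1 replicate 3, at adjusted p up to 0.0902 and 0.0894. Soat1 also missed the threshold with library totals alone (0.0574).

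Of 24 other genes of fatty acid metabolism, 4 were lower and 2 higher in MN1pQdel, at a median log2 fold change of -0.06. Beside these counts, 6.08% of all tested genes were called lower and 11.1% higher. Gpam, whose enzyme starts glycerolipid synthesis, had 13.0, 58.1 and 10.5 CPM in MN1pQdel, against 262, 308 and 368 CPM in MN1 and 20.6 CPM in noTD. Its log2 fold change of -3.52 (standard error 0.69, edgeR Benjamini-Hochberg adjusted p = 0.0215) kept the call in 2 of 6 fits without 1 library, those without MN1pQdel replicate 2 or 3. Dgat1, which completes triglyceride synthesis, went the other way, with 157, 108 and 103 CPM in MN1pQdel, against 37.2, 34.4 and 30.4 CPM in MN1 and 163 CPM in noTD. Its log2 fold change of 1.85 (standard error 0.19, edgeR Benjamini-Hochberg adjusted p = 0.00526) kept the call in 6 of 6 such fits. Acsl3, an acyl-CoA synthetase gene, was lower in MN1pQdel (log2 fold change -1.22, SE 0.27, edgeR Benjamini-Hochberg adjusted p = 0.0295), with the call kept only without MN1pQdel replicate 2. The other called genes, named after their values were seen, were the mitochondrial citrate carrier gene Slc25a1 (-0.55) and the malonyl transferase gene Mcat (-1.06), lower in MN1pQdel, and the acyl-CoA synthetase gene Acsl1 (1.02), higher. Slc25a1 kept its call without MN1pQdel replicate 2 or MN1 replicate 2, Mcat without MN1pQdel replicate 2, and Acsl1 without MN1pQdel replicate 2 or 3, and each lost it in the other fits.

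Of 13 genes of fatty acid oxidation, 1 was lower and 0 higher, at a median log2 fold change of -0.05, and 0 were higher at an unadjusted p under 0.05. For this list and those that follow, 6.08% of all tested genes were called lower and 11.1% higher by edgeR. At an unadjusted p under 0.05, 16.8% of all tested genes were lower and 21.0% higher. The lower gene was Hadh, a dehydrogenase of the oxidation cycle (log2 fold change -0.61, SE 0.13, edgeR Benjamini-Hochberg adjusted p = 0.0273). Of 10 genes of the LXR (oxysterol receptor) and cholesterol efflux list, 1 was higher, Rxra, the partner receptor of LXR, at 33.3, 10.6 and 35.1 CPM in MN1pQdel, against 6.17, 5.37 and 7.46 CPM in MN1 and 33.8 CPM in noTD (log2 fold change 2.05, SE 0.45, edgeR Benjamini-Hochberg adjusted p = 0.0281). MN1pQdel replicate 2 lay apart from its group for Rxra as it did for Acss2. Hadh and Rxra kept their calls only without MN1pQdel replicate 2. Of 12 cell cycle genes 0 were lower and 0 higher by edgeR, with 2 lower and 0 higher at an unadjusted p under 0.05 and 1 lower by DESeq2. With the block 3 were lower and 0 higher, and 11 of the 12 log2 fold changes were below 0, at a median of -0.15. Of all tested genes, 13.7% were lower with the block, 12.9% were lower by DESeq2, and 49.3% had a log2 fold change below 0. The sums of the cell cycle genes ran from 3256 to 4326 CPM in MN1pQdel and from 3793 to 4315 CPM in MN1.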

How the data were processed

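Poly(A) RNA of 7 libraries was sequenced as paired-end reads, per the labels' protocols. The authors deposited estimated counts per gene in 1 table, with kallisto, DESeq2 and GRCm38 named in the submitters' processing notes and no versions or index given. Of the values, 32.5% were not whole (tolerance 1e-06), and they were rounded before testing. The rows include 26 date-like names that hold 0.172% of the counts. Such counts assign shared reads by model, so paralogues can exchange counts.

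MN1pQdel (n = 3) was compared with MN1 (n = 3) by edgeR 4.0.16 (TMM, filterByExpr, quasi-likelihood test, Benjamini-Hochberg adjustment over 14808 genes, threshold 0.05). Levels are TMM-scaled CPM computed from the deposited counts over all 7 libraries, and differences from noTD use log2 CPM with a prior count of 2. DESeq2 1.42.0 was an alternative, as were other scalings and filters, all 7 libraries in the fit, the replicate number as a block, and fits without 1 library or without both libraries numbered 2. The members and gene lists were chosen with earlier results of these data known. Named genes were all members past the threshold, a few members named whatever their values (Srebf2, Srebf1, Insig1, Hmgcs1, Sqle, Fasn, Scd1 and Scd2), up to 3 called genes with the largest change from each related list, members past 2-fold against noTD, and Mn1; other members shown library by library (Acly, Acaca, Elovl6, Acss2 and Ebp) were chosen after their values were seen.

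Deviations from the group mean correlated at 0.467, 0.354 and 0.382 between libraries of the same number, across 12285 genes. Between other libraries they correlated at -0.338 to -0.0483. Libraries of the same number were treated as pairs only in the block fit and in the differences within a number. The main fit, which gave the 6 calls, left this pairing out. This pairing comes from the data and not from the labels. Replicates were distinct (chi-square per gene at least 43.5). Both fits were tested on simulated counts drawn without pairing, with 1 draw for each fit. There 11.6% of the calls of the block fit were false, and 4.44% of those of the fit without the block. The simulation lacked the correlation within a number seen here. It therefore cannot show how secure a call made only with the block is in these data, which was not tested. Every member had at least 567 counts in each library.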

Additional observations from a re-analysis of the deposited data

How the results depend on the processing

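The main counts were 2 of 17 sterol enzymes, 3 of 10 fatty acid enzymes and 1 of 3 regulators called between MN1pQdel and MN1, and 2545 of all tested genes. With the replicate block they were 1, 6, 2 and 4545, and the block changed the calls of Dhcr7, Srebf1, Acss2, Scd2 and Elovl6 and of no other member. DESeq2 called 7 fatty acid enzymes, 2 regulators and 4351 genes, library totals alone called 5 fatty acid enzymes and 2 regulators, and the fit without both libraries numbered 2 called 8 fatty acid enzymes and 5247 genes. Leaving out 1 library gave 0 to 3 sterol enzymes, 0 to 8 fatty acid enzymes, 0 to 2 regulators and 506 to 6394 genes. The highest of these came without MN1pQdel replicate 2; the cause was not tested.

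The median log2 fold change stayed below 0 in both branches in every fit run, between -0.38 and -0.07 (sterol) and between -0.80 and -0.54 (fatty acid) without 1 library. The fatty acid median was -0.82 with library totals alone, which shifted all genes by -0.20, and -0.85 without both libraries numbered 2. Over noTD, library totals alone raised the MN1 medians to 0.86 (sterol) and 1.19 (fatty acid). Of the member values under all alternatives, 354 kept direction and call, 27 gained and 30 lost a call, and 9 changed sign. With library totals alone Mvk was -0.15 and Ebp -0.027, and without both libraries numbered 2 Mvk was -0.029. Without 1 library, Mvk ran from -0.12 to 0.15, Sqle from -0.31 to 0.063, Msmo1 from -0.40 to 0.077 and Elovl5 from -0.17 to 0.0055. There were 3 libraries a group and 1 noTD library, and how depth and the number of libraries each limit these values was not tested. In the simulated counts drawn without pairing, the fit without the block called 38% of the genes changed by 1 on the log2 scale. A gene that was not called may therefore still differ.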
